A study of Caenorhabditis elegans with 54 samples.

Results

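The GABA signalling genes unc-25, unc-47, unc-46, unc-30, snf-11, unc-49 and gab-1 were followed through 9 ribosome-fraction experiments in the nematode Caenorhabditis elegans. These are 7 of the 20728 genes listed in the deposited tables. They were chosen by name for their known roles, without a threshold on any measured value but with earlier results of these data known. Each gene was read in every table. In the neuronal ribosome immunoprecipitations (IPs) all 7 stood above whole-animal RNA. In the muscle IP only snf-11 and the receptor gene unc-49 did, so that these 2 genes were high in both tissues, while unc-25, unc-47, unc-46, unc-30 and gab-1 were far higher in neurons than in muscle.

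GABA is the main inhibitory transmitter of the worm's motor circuit, where GABA neurons relax the body wall muscle on one side of the body while acetylcholine neurons contract the other. A GABA neuron makes the transmitter from glutamate with UNC-25, the glutamic acid decarboxylase, and loads it into synaptic vesicles through UNC-47, the vesicular GABA transporter, whose sorting to vesicles needs UNC-46, a membrane protein related to the LAMP family. UNC-30 is a Pitx-type homeodomain transcription factor that specifies the D-type GABA motor neurons and activates unc-25 and unc-47 in them, SNF-11 is the plasma membrane transporter that takes GABA back up, UNC-49 supplies the GABA-gated chloride channel of body wall muscle, and GAB-1 is a further subunit of the GABA-A type.

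Each experiment compared 3 ribosome libraries with 3 libraries of whole-animal total RNA, all from day 1 adults kept at 20 °C without a special treatment. In 6 experiments ribosomes carrying a FLAG tag on the large-subunit protein RPL-22 were immunoprecipitated. The other 3 used sucrose gradients, which separate ribosomes by how many sit on one mRNA. The labels do not say whether the 3 libraries of a group came from separate cultures, so the p-values rest only on the spread among the libraries of a group, which may be technical.

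The IP strains differ in what drives the tagged protein. Neurons A (strain MSD473, genotype wbmls99) and neurons B (WBM1471, wbmIs133) use the rab-3 promoter, muscle (WBM1339, wbmIs118) the myo-3 promoter, intestine (WBM1470, wbmIs131) the nep-17 promoter and soma (WBM1364, wbmIs119) the eft-3 promoter. The ubiquitous strain (MSD470, rpl-22(wbm58)) carries the tag on the endogenous gene. The same ubiquitous strain gave the polysome experiment and an experiment on pooled 60S, 80S and polysomal fractions, and untagged wild-type Bristol N2 animals gave the last polysome experiment. The rab-3 promoter is active in neurons generally, so the neuronal IPs are not restricted to GABA neurons, and myo-3 marks the non-pharyngeal muscles. The series description names WBM1471 for the intestine as well, and the sample labels were followed here.

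Levels are the authors' normalized counts, which are scaled within one table, so a level is compared only inside its own experiment. Estimated depth, in units of 1e6 reads, ran from 6.98 to 78.2 (median 32.9) over the 54 libraries, and 83 to 7896 listed genes stood at 0 in a library. The library with most genes at 0 was neurons A IP replicate 3, and intestine IP replicate 2 also stood apart, with every member but unc-25 and unc-49 at 0. The labelled tissues carried their markers. Of 10 neuron markers 9 rose in the neurons A IP and 10 in the neurons B IP, beside 15.3% and 38.7% of all genes tested. All 8 body wall muscle markers rose in the muscle IP, beside 23.1%.

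Enrichment is the mean log2 of the normalized count plus 1 in the ribosome libraries less that in the total RNA of the same experiment. A gene was called when its Benjamini-Hochberg adjusted p over all genes tested was under 0.05 in limma. Genes with a mean under 10 over the 6 libraries were not tested. In the bulk libraries fewer cells of a type and less RNA per cell cannot be told apart.

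**Figure D1:**
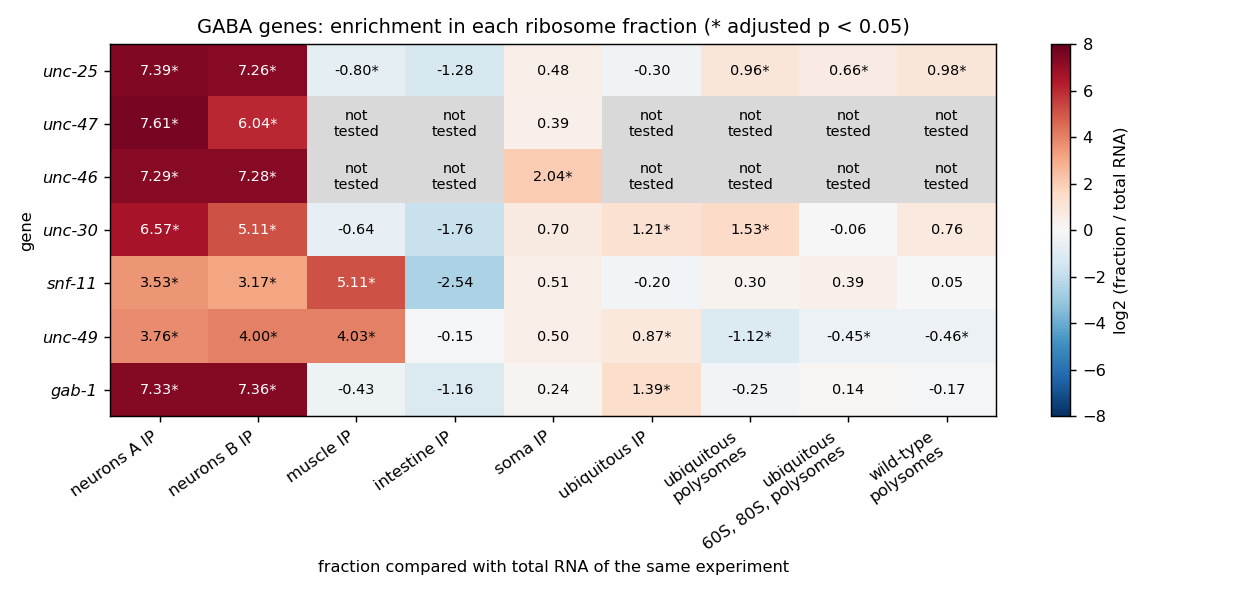
Log2 ratio of ribosome fraction to total RNA for each GABA gene (rows) in each experiment (columns), mean of 3 libraries against 3, with red for higher in the fraction, blue for lower and grey for a mean under 10. The genes unc-25, unc-47, unc-46, unc-30 and gab-1 are strongly red in the neuronal columns only, whereas snf-11 (5.11) and unc-49 (4.03) are also red in the muscle column.

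The gene for the synthetic enzyme, unc-25 (WBGene00006762, WBcel235 chromosome III, 12942651 to 12949883, plus strand), had the highest level of the 7 in the neuronal IPs. In neurons A it had 24032, 20136 and 12184 normalized counts in the IP, against 162, 118 and 62.9 in total RNA. Neurons B had 28688, 37583 and 40688 in the IP, against 249.9, 203 and 237 in total RNA. The lowest IP library lay 75.1-fold above the highest total library in neurons A and 114.8-fold in neurons B. The log2 enrichment was 7.39 ± 0.55 (SE, n = 3 each) in neurons A, with an adjusted p of 0.000705 (limma), and 7.26 ± 0.22 in neurons B, with an adjusted p of 1.1e-08. In muscle unc-25 had 153, 110.1 and 105 in the IP, against 259, 195 and 187 in total RNA. The muscle groups did not overlap, and the IP was lower, with a log2 ratio of -0.80 ± 0.26 (adjusted p = 0.0352, limma). That call was lost with no filter on low values (adjusted p = 0.0558), in the authors' deposited table (0.0529), and without muscle replicate 2 (0.209) or replicate 3 (0.216).

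The vesicular transporter gene unc-47 (WBGene00006783, chromosome III, 10183762 to 10186260, minus strand) was scarce in whole animals and abundant in the neuronal IPs. In neurons A it had 419, 338 and 3689 in the IP, against 3.58, 3.20 and 2.65 in total RNA. The IP library of replicate 3 was far above the other 2, although in that library unc-25, unc-46, unc-30, snf-11 and unc-49 were at their lowest. The neurons B IP had 736, 856 and 765, against 7.53, 10.7 and 16.1 in total RNA. These IP libraries were close together and all above total RNA. Enrichment was 7.61 ± 1.10 in neurons A and 6.04 ± 0.38 in neurons B (adjusted p = 4.15e-07, limma). Total RNA averaged 3.15 in neurons A, under the filter, so unc-47 passed there only through the IP and had to differ. Its neurons A value is therefore a description. In the muscle IP unc-47 had 3.83, 0 and 0, against 5.85, 4.78 and 5.98 in total RNA, too few to test.

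The sorting-protein gene unc-46 (WBGene00006782, chromosome V, 5097075 to 5099025, minus strand) was likewise rare in whole animals. In neurons A it had 785, 821 and 297 in the IP, against 2.16, 5.86 and 1.32 in total RNA. The neurons B IP had 1473, 1668 and 1909, against 23.5, 4.45 and 8.31 in total RNA. All IP libraries were above all total libraries, with enrichments of 7.29 ± 0.91 in neurons A and 7.28 ± 0.51 in neurons B (adjusted p = 9.53e-07, limma). The neurons A value is a description, because total RNA averaged 3.11 there and unc-46 passed the filter only through the IP. In muscle unc-46 had 1.95, 3.54 and 14.3 in the IP, against 12.9, 1.92 and 11.3 in total RNA, values that overlapped and were too low to test. An exon of unc-46 overlaps the coding gene C04F5.2 on the same strand, which the tables list at 151, 198 and 123 in the neurons B IP, against 0, 0 and 0.787 in total RNA. Reads from the shared stretch cannot be assigned with certainty, and C04F5.2 held fewer counts than unc-46 in each neurons B IP library.

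**Figure D2:**
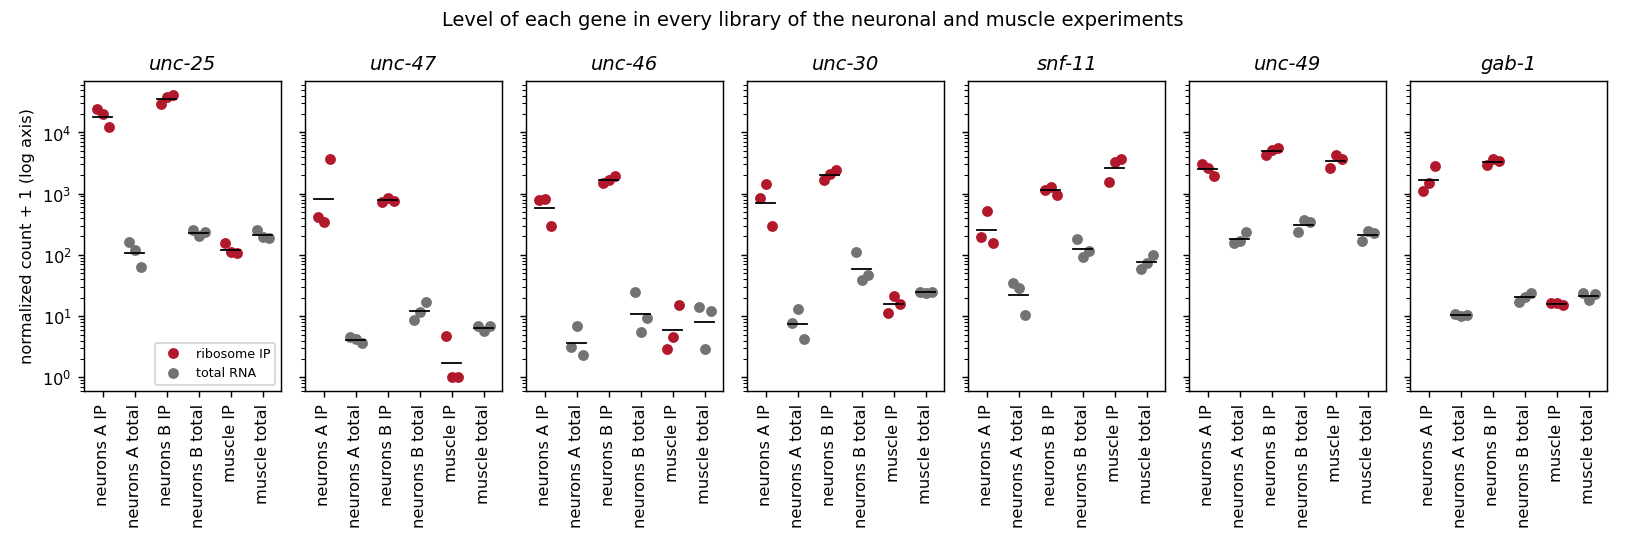
Normalized count plus 1 (log axis) of each GABA gene in every IP (red) and total RNA (grey) library of the neurons A, neurons B and muscle experiments, with a line at the mean on the log scale. Levels are comparable within an experiment; the red points of unc-25, unc-47, unc-46, unc-30 and gab-1 lie above the grey ones in neurons and overlap them or lie below them in muscle, while for snf-11 and unc-49 they lie above in all 3 experiments.

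The transcription factor gene unc-30 (WBGene00006766, chromosome IV, 13118977 to 13124406, plus strand) had 865, 1413 and 300.1 in the neurons A IP, against 6.78, 12.3 and 3.19 in total RNA. The neurons B IP had 1686, 2093 and 2424, against 109, 38.5 and 46.3 in total RNA. The groups did not overlap in either strain, and enrichment was 6.57 ± 0.92 in neurons A and 5.11 ± 0.39 (adjusted p = 1.82e-06, limma) in neurons B. With a total RNA mean of 7.42 in neurons A, unc-30 passed the filter there only through the IP, so that value is a description. In muscle it had 10.3, 20.5 and 14.9 in the IP, against 23.9, 22.9 and 23.4 in total RNA. All 3 muscle IP libraries were below total RNA, and the log2 ratio of -0.64 ± 0.48 did not pass the test (adjusted p = 0.323). With each library scaled to an equal sum, which moved the muscle median of all genes by -1.39, it was -1.96 (adjusted p = 0.00201), but under that scaling 82.3% of 15111 genes were called in muscle, against 36.2% of 14681 with the values as deposited.

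The reuptake transporter gene snf-11 (WBGene00004910, chromosome V, 11305070 to 11308446, minus strand) was called in both tissues, with its largest ratio in muscle. In neurons A it had 196, 526 and 156 in the IP, against 34.3, 27.9 and 9.31 in total RNA. In neurons B it had 1169.7, 1298 and 963 in the IP, against 184, 92.0 and 116 in total RNA. The muscle IP had 1536, 3256 and 3729.7, against 58.8, 74.1 and 100.3 in total RNA. No IP library overlapped total RNA in any of the 3 experiments. The log2 enrichment was 3.53 ± 0.90 in neurons A (adjusted p = 0.0282, limma), 3.17 ± 0.31 in neurons B (adjusted p = 1.15e-05) and 5.11 ± 0.34 in muscle (adjusted p = 3.24e-07). With equal-sum scaling the neurons A value was 3.06, with an adjusted p of 0.0739.

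The receptor gene unc-49 (WBGene00006784, chromosome III, 10520762 to 10532705, plus strand) produces several subunits from one locus. The annotation has 14 transcripts of it, and the tables carry 1 entry, so the subunits cannot be told apart. Its exons also overlap 2 non-coding RNA genes, T21C12.9 on the opposite strand and T21C12.12 on the same strand.

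In neurons A unc-49 had 3037, 2655 and 1970.4 in the IP, against 158, 166 and 239 in total RNA. In neurons B it had 4211, 5181 and 5618 in the IP, against 234, 368 and 344 in total RNA. In the muscle IP unc-49 had 2627, 4219 and 3695, against 167, 244 and 228 in total RNA. The lowest IP library was 8.23-fold above the highest total library in neurons A, 11.5-fold in neurons B and 10.8-fold in muscle. Enrichment was 3.76 ± 0.48 in neurons A (adjusted p = 0.00295, limma), 4.00 ± 0.25 in neurons B (adjusted p = 3.78e-07) and 4.03 ± 0.25 in muscle (adjusted p = 1.81e-07).

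Body wall muscle markers did not rise with unc-49 and snf-11 in the neuronal IPs. The 8 markers (myo-3, unc-54, pat-10, mlc-1, mlc-2, unc-27, unc-15 and lev-11) summed to 37605 to 45684 normalized counts in the neurons B IP, against 178367 to 233300 in total RNA. All 8 fell there, beside 32.6% of all genes tested. In neurons A they summed to 6477 to 18288 in the IP, against 38290 to 119122 in total RNA. There 4 of 8 fell, beside 12% of all genes tested, with none rising. None of the 8 was at 0 in all 3 libraries of a group. In the muscle IP the 10 neuron markers summed to 11497 to 13446, against 9471 to 10336 in total RNA. Of these markers 1 rose (snb-1), beside 23.1% of all genes tested, and 2 fell (egl-21 and ida-1), beside 13.1%.

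The intestine markers moved with the neurons B IP, where they summed to 1459600 to 2970510, against 834129 to 1076070 in total RNA, with 4 of 8 rising, beside 38.7% of all genes tested. Their part in the results was not tested. In the intestine IP itself unc-47 and unc-46 were listed at 0 in all 3 libraries.

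The second receptor gene, gab-1 (WBGene00001512, chromosome III, 12771868 to 12779726, minus strand) was high in the neuronal IPs and low in muscle, as unc-25 was. In neurons A it had 1103, 1515 and 2820.3 in the IP, against 10.0, 8.93 and 9.30 in total RNA. In neurons B it had 2907, 3692 and 3462 in the IP, against 16.3, 19.5 and 22.8 in total RNA. The groups were far apart in both strains, with enrichments of 7.33 ± 0.67 in neurons A and 7.36 ± 0.28 in neurons B (adjusted p = 1.99e-08, limma). Because total RNA averaged 9.41 in neurons A, gab-1 passed the filter there only through the IP, and that value is a description. In muscle gab-1 had 15.3, 15.5 and 14.4 in the IP, against 23.0, 17.3 and 22.0 in total RNA. The muscle IP libraries were all lower, yet the log2 ratio of -0.43 ± 0.47 did not pass the test (adjusted p = 0.501), and with equal-sum scaling it was -1.75 (adjusted p = 0.00448), a setting under which most genes were called.

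Counted over the 7 genes, 7 of 7 rose in neurons A, where 15.3% of the 14483 genes tested rose and 12% fell. Of them, unc-47, unc-46, unc-30 and gab-1 passed the filter there only through the IP, so that they had to differ, and nothing rests on their part in that count. Neurons A calls depended on which replicates entered. Without IP replicate 3 alone, the library that stood apart, all 7 were called, with unc-47 at 6.51, and its difference from muscle was 8.46. Without replicate 1 none of the 7 was called by limma, although all 7 had an unadjusted p under 0.05, and without replicate 2 only unc-25 was called. Calls over all 14483 genes were lost too. When replicate 1 was left out limma called 0 of them (2868 had an unadjusted p under 0.05), and when replicate 2 was left out it called 128 (0.884%). In neurons B 7 of 7 rose, beside 38.7% of 16572 genes that rose and 32.6% that fell, and all 7 stayed called without any one replicate. The median over the 7 genes in neurons B was 6.04, beside 0.10 over all genes tested. In muscle 2 of the 5 genes tested rose, beside 23.1% of 14681 genes, and 1 fell, beside 13.1%. The muscle median was -0.43, against -0.14 over all genes.

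The design also allows the enrichment in neurons to be set against that in muscle directly. This difference of log2 ratios was tested as an interaction over the 12 libraries of both experiments. Both differences use the same muscle libraries, so they are not independent. A positive value means a higher ratio in neurons. The median difference over all genes tested was -1.08 in strain A and -0.38 in strain B.

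The synthetic enzyme gene unc-25 was more enriched in neurons by a log2 of 8.19 in strain A (95% interval 6.78 to 9.61, adjusted p = 1.95e-05, limma) and 8.06 in strain B (7.34 to 8.77, adjusted p = 1.73e-11). The receptor gene gab-1 differed by 7.76 (6.21 to 9.31, adjusted p = 3.82e-05) and 7.78 (6.78 to 8.79, adjusted p = 8.25e-10). For unc-30 the difference was 7.20 (5.10 to 9.31, adjusted p = 0.000362) and 5.75 (4.53 to 6.97, adjusted p = 3.69e-07). The vesicle genes unc-46 and unc-47 were under the filter in muscle and in neurons A total RNA, so that in strain A they entered only through the neuronal IP and had to differ. Their strain A differences of 7.72 for unc-46 (5.04 to 10.40) and 9.56 for unc-47 (6.66 to 12.45) are therefore given as descriptions. In strain B their total RNA averaged 12.1 and 11.4, just above the filter. For unc-46 that mean rests on 1 library, at 23.5 against 4.45 and 8.31, so its strain B result is little more than a description. Both genes entered the strain B test through the neurons B values alone. There unc-46 differed by 7.71 (5.57 to 9.85, adjusted p = 8.49e-06, limma) and unc-47 by 7.99 (6.13 to 9.84, adjusted p = 1.09e-06), with muscle levels too low to test alone. The size for unc-47 depends on the pseudocount, because 2 muscle IP libraries were at 0. With pseudocounts of 5 and 0.5 it was 7.44 and 10.35 in strain A, and 6.42 and 8.65 in strain B.

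The transporter gene snf-11 had a lower ratio in neurons B than in muscle, with a difference of -1.94 (-2.97 to -0.91, adjusted p = 0.00316, limma). In strain A its difference of -1.58 did not pass the test (-3.59 to 0.43, adjusted p = 0.228). Less the all-gene median, the difference was -1.56 in strain B and -0.50 in strain A. With equal-sum scaling the strain B difference was -0.96 (adjusted p = 0.148). In strain A it was -0.66 with that scaling, -1.23 without IP replicate 3 alone (adjusted p = 0.251) and -1.77 without both libraries of replicate 3 (adjusted p = 0.0374).

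For unc-49 the ratio in neurons and in muscle was not told apart. The difference was -0.27 in strain A (-1.43 to 0.90, adjusted p = 0.731, limma) and -0.03 in strain B (-0.79 to 0.73, adjusted p = 0.951). Its sign turned under equal-sum scaling, at 0.65 in strain A and 0.96 in strain B (adjusted p = 0.606 and 0.0388). That scaling moved the median of all genes by 0.96 in strain A and 0.97 in strain B. With the values as deposited, unc-49 lay above the all-gene median by 0.81 in strain A and 0.35 in strain B.

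Over the 7 genes 5 rose and none fell in neurons A minus muscle, beside 10.6% and 12.9% of 15486 genes, and the 5 include unc-46 and unc-47, on which nothing rests in that strain. In neurons B minus muscle 5 rose and 1 fell, beside 26.6% and 28.9% of 16380 genes. These 5 also include unc-46 and unc-47. Both were under the filter in muscle and entered through the neurons B values alone, so little rests on their part.

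**Figure D3:**
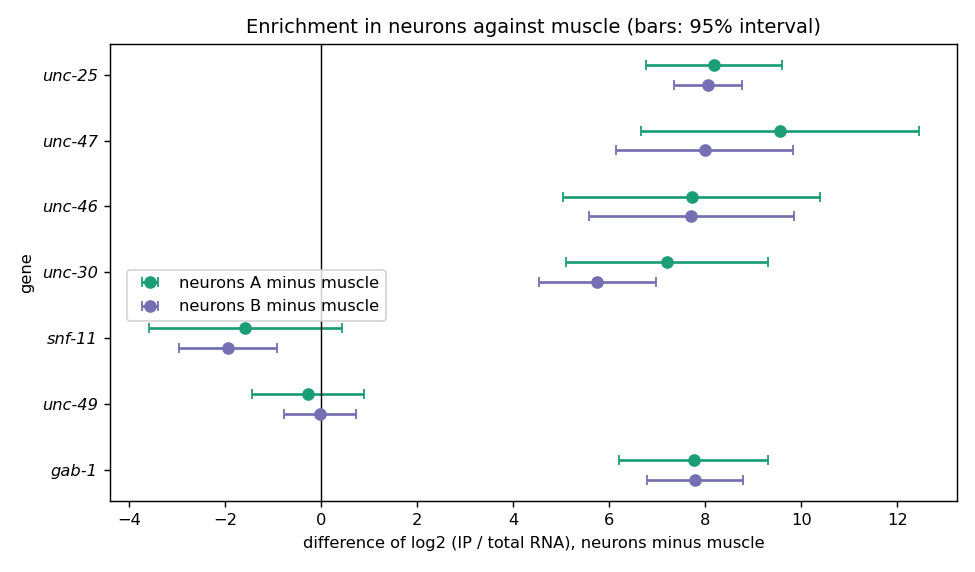
Difference of the log2 ratio of IP over total RNA, neurons minus muscle, for each GABA gene, with green points for neurons A and purple points for neurons B; bars are 95% intervals from limma over 12 libraries. The genes unc-25, unc-47, unc-46, unc-30 and gab-1 lie between 5.75 and 9.56, snf-11 lies below 0 at -1.58 and -1.94, and unc-49 lies at -0.27 and -0.03.

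The neuronal strains were also set against each other. No GABA gene differed in enrichment between neurons A and neurons B by limma (0 of 7, and 0 at an unadjusted p under 0.05, beside 0.0121% of 16563 genes that rose and 2.37% that fell). The differences ran from -0.24 for unc-49 to 1.57 for unc-47, with 95% intervals of -1.40 to 0.93 and -0.97 to 4.12. The median of this difference over all genes was -0.73, and all 7 lay above it, by 0.49 (unc-49) to 2.30 (unc-47). For unc-25 the interval was -1.18 to 1.45, for unc-30 -0.70 to 3.60 and for snf-11 -1.62 to 2.34, so that differences of this size were not detectable.

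Per kilobase of annotated exon, the genes could be ordered within an IP. The length was the union of all annotated exons, 4110 bases for unc-49 with 14 transcripts and 2123 for snf-11 with 1. A transcript shorter than that union makes the value per kb too low, so the rank of unc-49 is uncertain. In the neurons B IP unc-25 led with 20777 ± 3629 normalized counts per kb (SD, n = 3). It was followed by gab-1 at 1889 ± 227, unc-30 at 1520 ± 272, unc-46 at 1413 ± 183 and unc-49 at 1217 ± 175. The lowest were snf-11 at 539 ± 79.7 and unc-47 at 500.4 ± 39.9. The libraries of unc-25 lay apart from all others, each neighbouring pair from gab-1 to unc-49 overlapped, and so did snf-11 and unc-47. In the muscle IP the order was snf-11 at 1338 ± 544, unc-49 at 855 ± 197 and unc-25 at 71.5 ± 15.2 per kb. The libraries of snf-11 and unc-49 overlapped there, and unc-25 lay below both. Before the division by length unc-49 averaged 3513 normalized counts in the muscle IP and snf-11 2841. In the neurons B IP unc-49 averaged 5003 and gab-1 3354, so these orders rest on the length used.

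In the intestine IP no GABA gene was called by limma. Of the 5 tested, 1 had an unadjusted p under 0.05 and none did without IP replicate 2, and the authors' deposited table called 2, unc-25 (-1.23, adjusted p = 0.0416) and snf-11 (-2.06, adjusted p = 0.0431). Over all genes 17.8% of 13629 rose and 9.61% fell. The enzyme gene unc-25 had 38.9, 30.4 and 57.1 in the intestine IP, against 81.5, 103 and 119.3 in total RNA. These groups did not overlap, with a log2 ratio of -1.28 ± 0.54 (adjusted p = 0.118, limma). The vesicle genes unc-47 and unc-46 were listed at 0 in all 3 intestine IP libraries, against 2.95 to 7.38 and 3.54 to 4.39 in total RNA. The receptor gene unc-49 had 159, 175 and 126 in the IP, against 166, 152 and 189.8 in total RNA, and the groups overlapped. With equal-sum scaling, which moved the intestine median of all genes by -1.22, unc-25 was called at -2.45 (adjusted p = 0.0146, limma) and unc-49 at -1.34 (adjusted p = 0.0350).

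In the soma IP, where the driving promoter is broad, 1 of 7 genes rose, beside 25.1% of 16031 genes, and none fell, beside 32.7%. That gene was unc-46, with 59.1, 83.7 and 106 in the IP, against 15.6, 21.1 and 20.5 in total RNA. Its IP libraries were all higher, with a log2 ratio of 2.04 ± 0.48 (adjusted p = 0.00468, limma). The other 6 had ratios between 0.24 (gab-1) and 0.70 (unc-30) that did not pass the test.

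In the ubiquitous IP 3 of 5 genes rose, beside 16.9% of 13853 genes, and none fell, beside 20.4%. The receptor gene unc-49 had 260.2, 282 and 254 in the IP, against 112, 153 and 175 in total RNA, and gab-1 had 18.7, 12.8 and 24.0, against 6.74, 6.04 and 5.92. Neither overlapped, and the ratio of unc-49 was 0.87 ± 0.20 (adjusted p = 0.00688, limma). The ratio of gab-1, 1.39 ± 0.40, is a description, because its total RNA averaged 6.23, under the filter. The factor gene unc-30 had 26.6, 32.0 and 41.7 in the IP, against 12.6, 9.59 and 20.7 in total RNA, a ratio of 1.21 ± 0.37 (adjusted p = 0.0257). One of the 3, gab-1, passed the filter only through the IP, and nothing rests on its part in the count of 3. None of the 3 was called without replicate 1 or without replicate 2, where 3 and 2 genes had an unadjusted p under 0.05, gab-1 was not called without replicate 3 either (adjusted p = 0.104), and the authors' deposited table called only unc-49. The enzyme gene unc-25 had 142, 169.9 and 189.5 in the IP, against 201, 183 and 234 in total RNA, which overlapped (-0.30 ± 0.19, adjusted p = 0.232).

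In the sucrose gradients, which sample ribosomes of the whole animal, the enzyme gene was higher and the receptor gene unc-49 lower than in total RNA in all 3 experiments. In the polysomes of the ubiquitous strain unc-25 had 315, 260.2 and 272, against 163, 132 and 139.8 in total RNA. In wild-type polysomes it had 274, 285 and 298, against 152, 137 and 144 in total RNA. In the pooled 60S, 80S and polysomal fractions it had 260.4, 207 and 237, against 148, 189 and 116 in total RNA. None of the 3 pairs of groups overlapped. The log2 ratios were 0.96 ± 0.18 (adjusted p = 0.00206, limma), 0.98 ± 0.15 (adjusted p = 4.37e-05) and 0.66 ± 0.20 (adjusted p = 0.0150). The last of these was not called without replicate 1 (adjusted p = 0.0595) or replicate 3 (0.107).

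The receptor gene unc-49 had 182, 358 and 203 in the polysomes of the ubiquitous strain, against 511, 640.2 and 416 in total RNA. In wild-type polysomes it had 449.6, 416 and 337, against 516, 566 and 568 in total RNA. In the pooled fractions it had 625, 491 and 455, against 734, 707 and 693 in total RNA. Every fraction library was below every total library of its experiment. The log2 ratios were -1.12 ± 0.28 (adjusted p = 0.00821, limma), -0.46 ± 0.14 (adjusted p = 0.0101) and -0.45 ± 0.15 (adjusted p = 0.0275). The wild-type call was lost without replicate 2 (adjusted p = 0.0874). The pooled-fraction call was lost without replicate 2 (0.143) or 3 (0.103), with limma without the trend option (0.0586) and in the authors' deposited table (0.0558).

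Among the other genes in the gradients, unc-30 rose in the polysomes of the ubiquitous strain, with 27.3, 52.3 and 31.7, against 13.1, 13.6 and 9.03 in total RNA (1.53 ± 0.36, adjusted p = 0.00653, limma, and 0.0547 without replicate 3). Its ratios were 0.76 in wild-type polysomes and -0.06 in the pooled fractions, neither called. For snf-11 and gab-1 the ratios in the 3 gradient experiments lay between -0.25 and 0.39 and none was called. The low counts of unc-47 and unc-46 were not tested in any gradient. For unc-46 the authors' deposited table gives a log2 of 2.32 (adjusted p = 0.0385) in the polysomes of the ubiquitous strain, where it had 12.7, 11.5 and 15.99, against 3.09, 1.88 and 3.17 in total RNA. Markers of whole tissues moved in the same gradients. In wild-type polysomes 6 of 10 neuron markers, 3 of 3 acetylcholine genes, 8 of 8 body wall muscle markers and 8 of 8 intestine markers rose, while 5 of 7 germline markers fell. Germline markers also fell in the polysomes of the ubiquitous strain (6 of 7) and in the pooled fractions (4 of 7). Summed over the 7 markers, they held 170123 to 202333 normalized counts in wild-type polysomes, against 289661 to 368321 in total RNA. Their part in the results was not tested. As background, 28.4% of genes tested rose and 30.3% fell in the polysomes of the ubiquitous strain, 33.6% and 33.9% in wild-type polysomes, and 20.6% and 23.1% in the pooled fractions.

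**Figure D4:**
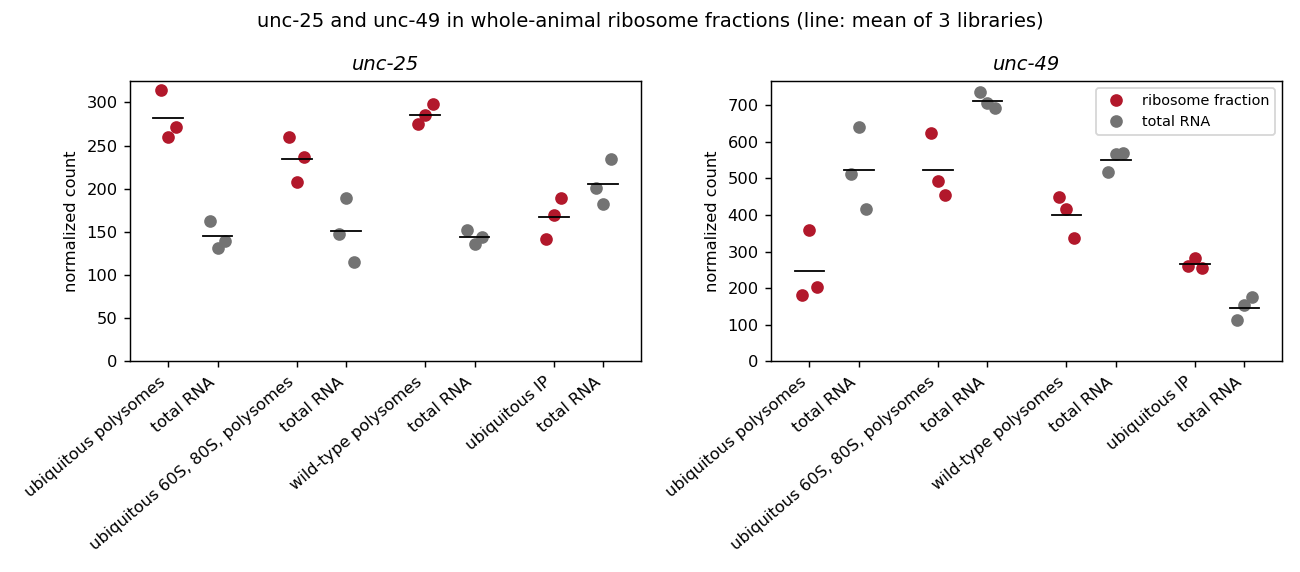
Normalized counts of unc-25 (left) and unc-49 (right) in each library of the whole-animal ribosome fractions (red) and their total RNA (grey), with lines at the means of 3 libraries; levels are comparable within an experiment. In the 3 gradient experiments the red points lie above the grey ones for unc-25 and below them for unc-49, and in the ubiquitous IP unc-49 lies above total RNA.

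The ubiquitous IP and the polysomes came from the same strain, and unc-49 lay on opposite sides of total RNA in them. A direct comparison, the IP ratio minus the polysome ratio over 12 libraries, was added after the values of unc-25 and unc-49 were seen. It called 3 of 5 genes, of which 2 rose, beside 22.6% of 14805 genes, and 1 fell, beside 20.9%. The receptor gene unc-49 had a higher ratio in the IP by a log2 of 1.99 ± 0.36 (adjusted p = 0.000924, limma). Total RNA of this strain differed between the 2 experiments as well. There unc-49 averaged 147 beside 206 for unc-25 in the IP experiment, but 522 beside 145 in the polysome experiment. In the ribosome libraries the averages were 266 beside 167 in the IP and 248 beside 282 in the polysomes. The part of total RNA in these differences was not tested. The receptor gene gab-1 was higher by 1.64 ± 0.53 (adjusted p = 0.0224), a call lost without IP replicate 1 (0.0553) or 3 (0.0844) or polysome replicate 3 (0.119). The enzyme gene unc-25 was lower, at -1.26 ± 0.26 (adjusted p = 0.00184), and with equal-sum scaling it was at -0.76 (adjusted p = 0.0631). For unc-30 and snf-11 the differences of -0.31 and -0.49 did not pass the test.

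Over the 9 experiments together, the genes with the ratios most like those of 4 GABA genes were sought among 14912 genes, by the root mean square difference of the 9 log2 ratios. Nearest to unc-25 were unc-17, the vesicular acetylcholine transporter gene (0.30), cho-1, the choline transporter gene (0.39), and the glutamate receptor gene glr-5 (0.41). Nearest to unc-49 were cdk-14 (0.36), dyc-1, which encodes a protein of muscle dense bodies (0.37), and avr-14, a glutamate-gated chloride channel gene (0.42). Nearest to snf-11 were the potassium channel genes sup-9 (0.43) and twk-12 (0.49) and the amino acid transporter gene aat-5 (0.50). Nearest to gab-1 were sro-1 (0.32), the neurexin gene nrx-1 (0.38) and glb-3 (0.39). The experiments share strains, and these distances are descriptions over 9 ratios.

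Of 7 other GABA receptor genes, 6 rose in neurons A, 7 in neurons B and 4 of the 6 tested in muscle, beside 15.3%, 38.7% and 23.1% of all genes tested. The medians were 5.31, 6.06 and 2.39, beside -0.80, 0.10 and -0.14 over all genes. The GABA-B receptor subunit gene gbb-2 was enriched by 5.31, 6.06 and 4.91 in neurons A, neurons B and muscle, and gbb-1 by 4.91, 5.48 and 2.99. The gene of the excitatory GABA-gated channel of enteric muscle, exp-1, had 5.56, 6.10 and 2.19, and lgc-35, another GABA-gated cation channel, had 5.97, 5.44 and 2.59. Set directly against muscle, 4 of 7 were higher in neurons A and 6 of 7 in neurons B, beside 10.6% and 26.6% of all genes. The exception in neurons B was gbb-2, with 1.15 (adjusted p = 0.0960). In neurons A total RNA the 7 genes summed to only 77.8 to 145.8 normalized counts. Genes of this and the following lists may have passed the filter in neurons A only through the IP, which was not examined. Their neurons A counts are descriptions.

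Both breakdown genes rose in muscle. The GABA transaminase gene gta-1 had -0.44 in neurons A, which was not called, and rose by 1.48 in neurons B and by 4.10 in muscle. Its ratio was lower in neurons than in muscle, with a difference of -4.54 in strain A (adjusted p = 0.0204, limma) and -2.63 in strain B (adjusted p = 5.17e-05). The other breakdown gene, alh-7, an aldehyde dehydrogenase gene, rose by 1.40 in muscle and did not pass the test in neurons A or B. The 2 genes had medians of -0.24, 0.95 and 2.75 in neurons A, neurons B and muscle.

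Of 6 genes that organise GABA synapses, 4 rose in neurons A, 5 rose and 1 fell in neurons B, and 3 rose in muscle (medians 3.78, 3.27 and 1.70). Over all genes 15.3% rose in neurons A, 38.7% rose and 32.6% fell in neurons B, and 23.1% rose in muscle. The secreted organiser gene madd-4 had 8.04, 7.78 and 0.83 in neurons A, neurons B and muscle, and nrx-1 had 7.55, 7.07 and -0.02, both called in neurons and not in muscle. The neuroligin gene nlg-1 rose by 3.39, 3.25 and 4.08, and lin-2, a CASK scaffold gene, by 3.15, 3.29 and 3.13. The gene that fell in neurons B was the netrin receptor gene unc-40 (-0.84). Of 3 chloride transporter genes 2 rose in each of the 3 IPs, beside the same shares of all genes, with kcc-2, which encodes a potassium-chloride cotransporter, at 3.89, 2.91 and 3.05 and abts-1 at 2.08, 1.03 and 1.21 (medians of the 3 genes 2.08, 1.03 and 1.21). Their differences between neurons and muscle ran from 0.84 to 0.97 in strain A and from -0.19 to 0.49 in strain B, with adjusted p-values between 0.311 and 0.760 (limma). Of 7 transcription factor genes of GABA neurons, 4 rose in neurons A, 7 in neurons B and 2 of 5 in muscle (medians 4.69, 3.87 and 0.20), again beside 15.3%, 38.7% and 23.1%. Among them unc-55, a nuclear receptor gene known for its role in VD motor neurons, rose by 4.69 and 4.73 in the neuronal IPs.

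**Figure D5:**
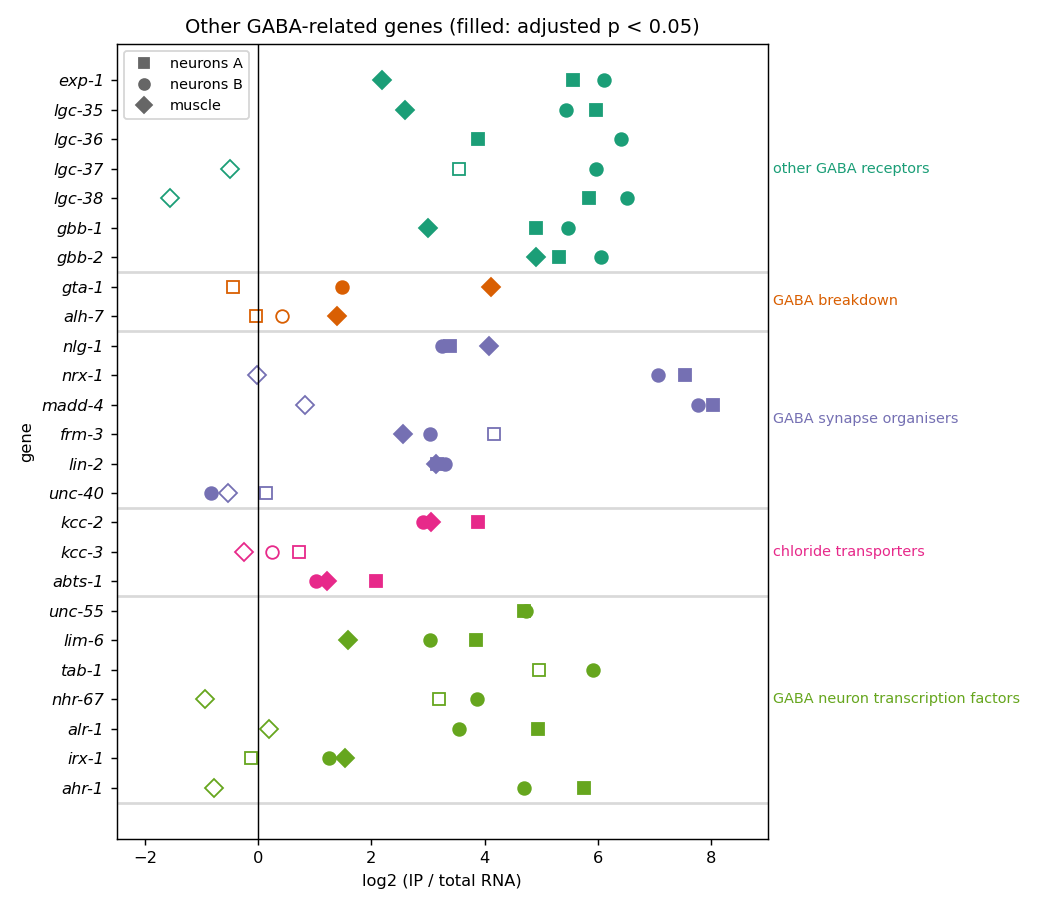
Log2 ratio of IP over total RNA of 25 further GABA-related genes in neurons A (squares), neurons B (circles) and muscle (diamonds), grouped by role; filled symbols have an adjusted p under 0.05 in limma, and a gene with a mean under 10 has no symbol. The receptor genes lie to the right in neurons, gta-1 lies further right in muscle (4.10) than in neurons, and nlg-1, lin-2 and kcc-2 lie near each other in all 3.

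In the acetylcholine system the transmitter genes were enriched in neurons and the receptor genes in both tissues. The 3 genes of acetylcholine synthesis and transport, unc-17, cha-1 and cho-1, rose by 6.71 to 7.37 in neurons A and 6.98 to 7.77 in neurons B, while in muscle none rose and unc-17 fell (-1.33). Of 6 muscle acetylcholine receptor genes 2 rose in neurons A, 6 in neurons B and 6 in muscle (medians 3.31, 3.02 and 4.67), beside 15.3%, 38.7% and 23.1% of all genes. Set against muscle, 2 of the 6 were lower in neurons A and 4 in neurons B, beside 12.9% and 28.9% of all genes, and those of strain B were lev-1 (-1.96), lev-8 (-3.35), unc-29 (-2.15) and acr-16 (-1.15). The GABA receptor gene unc-49 was called in neither difference.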

How the data were processed

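RNA of ribosome fractions and of total lysate was sequenced in 54 libraries, 3 per group. Tools named in the submitters' processing notes are DESeq2 1.30.1, kallisto 0.46.1 and R 4.0.4, and the build is ce11; their roles are not given in the sources used here. The authors' deposited per-library values are a normalized count signal, scaled separately in each of 9 tables. Per library, between 3.21% and 45.6% of them were whole multiples (within 0.01) of the size of a single count. Values of 0 count as whole here, and the library at 45.6%, neurons A IP replicate 3, had 44.0% of its genes at 0. Whole reads were therefore not recovered and no count test was run. The authors also deposited a log2 fold change with its standard error, a statistic (score), p-values and their −log10.

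Each fraction was tested against its own total RNA with limma 3.58.1 (R 4.3.3, trend option, two-sided) on log2 of the value plus 1. Genes had to average 10 or more in a table, and p-values were adjusted by Benjamini-Hochberg. Differences between experiments were interaction terms over 12 libraries. Symbols and positions came from Ensembl release 115 (WBcel235), which named 19405 of 20728 identifiers. Tables were made with Python 3.11.15, pandas 2.3.3 and numpy 2.4.6, and figures with matplotlib 3.10.9. Dividing by the size of one count gave estimated reads.

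Named genes were the 7 GABA genes, the lists described, and the 3 nearest genes of 4 of them. Members and lists were chosen with earlier results of these data known. Same-numbered fraction and total libraries deviated together in neurons A, intestine and ubiquitous IP (lowest pair correlation 0.313, 0.304 and 0.187, over 0.1). The main tests held no replicate term in any experiment, so this pairing entered only through the replicate block, an alternative setting. Under the block 42.4% of 14483 genes were called in neurons A, against 27.3% in the main test. In the other 6 experiments the lowest correlation ran from -0.347 to 0.0811. In soma the pairs were at 0.510, 0.0811 and 0.321, and in neurons B at 0.0590, 0.0220 and 0.0651. In both, each fraction library correlated best with its same-numbered total library. Alternatives were other pseudocounts (0.5 and 5), no filter, a replicate block, equal-sum scaling, limma without trend, the authors' test, and leaving out each replicate.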

Additional observations from a re-analysis of the deposited data

Results flagged for a closer look

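Enrichment differed between experiments, by the interaction test in limma, for 5 genes in neurons A minus muscle: unc-25 (8.19), unc-47 (9.56), unc-46 (7.72), unc-30 (7.20) and gab-1 (7.76). Of these, unc-47 and unc-46 entered that test only through the neuronal IP and had to differ. In neurons B minus muscle it differed for 6 genes: unc-25 (8.06), unc-47 (7.99), unc-46 (7.71), unc-30 (5.75), gab-1 (7.78) and snf-11 (-1.94). There unc-47 and unc-46 were under the filter in muscle and entered through the neurons B values alone, so little rests on them. In the ubiquitous strain the IP ratio minus the polysome ratio differed for unc-25 (-1.26), unc-49 (1.99) and gab-1 (1.64). These differences are on the log2 scale, and their intervals or standard errors are given with each comparison.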

How the results depend on the processing

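For genes that were in the main test, 770 values under an alternative kept direction and side of the threshold, 40 lost a call, 8 gained one and 30 changed sign. In neurons B none of the 70 changed. The replicate block changed no call; snf-11 in neurons A minus muscle, for example, had an adjusted p of 0.0914 under the block. Equal-sum scaling moved the all-gene median by -0.46 in neurons A, -0.42 in neurons B, -1.39 in muscle, -1.22 in intestine, 0.10 in soma, 0.25 in the ubiquitous IP, -0.26 in its polysomes, -0.38 in wild-type polysomes and 0.50 in the ubiquitous IP minus polysomes. The number of GABA genes called became 5 in muscle under equal-sum scaling (3 in the main test), where 82.3% of 15111 genes were called, against 36.2% of 14681 in the main test. In intestine it became 2 with no filter, with equal-sum scaling and in the authors' test (0 in the main test), but the genes differed. With no filter they were unc-47 and unc-46, which the main test left out. With equal-sum scaling they were unc-25 and unc-49, and in the authors' test unc-25 and snf-11. The number became 1 in the authors' test of the ubiquitous IP (3 in the main test). In the pooled fractions it became 1 both without trend and in the authors' test (2 in the main test). Leaving out a replicate gave 0 to 7 calls in neurons A, 0 to 2 in the ubiquitous IP, 0 to 1 in the pooled fractions and 1 to 3 in wild-type polysomes.

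Signs turned only for values that were not called in the main test. Under equal-sum scaling these were snf-11 in the ubiquitous IP (0.042) and in wild-type polysomes (-0.33), unc-49 in neurons A minus muscle (0.65) and neurons B minus muscle (0.96), unc-46 in neurons A minus B (-0.016), and unc-30 (0.17) and snf-11 (0.0028) in the ubiquitous IP minus polysomes. In neurons A minus B gab-1 was 0.010 with a pseudocount of 0.5 and unc-46 was -0.57 with 5. When replicates were left out, gab-1 ran from -2.30 to 0.17 and unc-49 from -0.33 to 0.070 in intestine, unc-47 from -0.64 to 1.60 in soma, and snf-11 from -0.68 to 0.051 in the ubiquitous IP and from -0.31 to 0.31 in wild-type polysomes. In the gradients gab-1 ran from -0.55 to 0.080 in the polysomes of the ubiquitous strain and from -0.070 to 0.51 in the pooled fractions, where unc-30 ran from -0.29 to 0.18. The difference of unc-49 ran from -0.51 to 0.10 in neurons A minus muscle and from -0.11 to 0.065 in neurons B minus muscle. In neurons A minus B unc-25 ran from -0.077 to 0.42, unc-46 from -0.68 to 0.49, unc-49 from -0.49 to 0.12 and gab-1 from -0.41 to 0.32. The cause of these changes was not tested. The number of libraries per group limits the precision throughout, and low counts that of unc-47 and unc-46 outside the neuronal IPs.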

Other observations

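The library that stood apart in neurons A, IP replicate 3, had an estimated 1311 reads of unc-47, against 5 or fewer estimated reads in each total RNA library of that experiment. The other IP libraries had an estimated 487 and 504 reads of unc-47. For unc-46 the same replicate 3 had an estimated 105 reads, and for unc-25 an estimated 4330. In intestine IP replicate 2 the 30.4 normalized counts of unc-25 stood for about 4.22 estimated reads. In the muscle IP the values of unc-46 stood for an estimated 0.998, 3.00 and 5.99 reads.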
